A study of Rattus norvegicus with 27 samples.

Results

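The step between postnatal days P20 and P25 was examined in acinar cells of the rat parotid gland, as the last interval of a developmental series. The comparison comprised the 3 arrays labelled P25 and the 3 arrays labelled P20 out of 27 arrays at 9 ages. All rats were Sprague Dawley, untreated, and acinar cells were cut out of frozen gland sections by laser. At both ages the dissected gland was sectioned, and each array stood for a separate litter. The other arrays came from E18, E20, P0, P2, P5, P9 and P15, and served to estimate the spread between arrays. Neither the sex of the animals nor the number pooled per array is given in the sources used here.

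The parotid is a serous salivary gland whose acinar cells fill with granules of amylase and other saliva proteins. In the rat these cells go on dividing after birth while they already make secretory protein, and the gland reaches its mature form around weaning. A cell that divides needs enzymes that copy DNA, kinesins, kinetochore proteins and other spindle parts that separate the chromosomes, and a ring of actin that pinches the daughters apart. Most of these genes are transcribed only in cycling cells, so that their mRNAs are commonly used to follow proliferation in a tissue.

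mRNA expression is given in log2 units of the robust multi-array average (RMA), so that a difference of 1 unit is a doubling. Changes are P25 minus P20 with the standard error (SE) of a limma fit to all 27 arrays, and a probe set was called when its p-value, adjusted by Benjamini and Hochberg over 31042 probe sets, was below 0.05. Correlations were 0.873 to 0.948 between arrays of one age and 0.879 to 0.905 between a P25 and a P20 array. The SD over probe sets was 2.05 to 2.13 on the P25 arrays and 2.11 to 2.26 on the P20 arrays. For the GAPDH control, the 3' minus 5' probe set value, a sign of RNA integrity, was 1.53 to 1.81 at P25 and 1.29 to 1.97 at P20. Xist minus Eif2s3y, an X-inactivation transcript against a Y-linked gene, was -2.46, 0.10 and -2.80 on the P25 arrays and 8.0, -2.22 and 8.32 on the P20 arrays, so 2 of the P20 arrays stood apart from the other 4 arrays in these sex-linked transcripts. A fit with this value as a covariate is given with the calls.

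Between P20 and P25 falls outnumbered rises by about 3 to 1 among the called probe sets. At P25, 72 probe sets were higher and 214 were lower than at P20, which were 0.232% and 0.689% of those tested. Both directions together made 286 calls (0.921%). Of these, 196 carried 1 gene symbol and stood for 38 genes that rose and 152 genes that fell. The other calls were 82 probe sets with no symbol and 8 with several, which are not named. The falls were large, with a median of -1.92 and a range of -4.22 to -0.87, whereas the rises had a median of 1.21 and ran from 0.76 to 3.83.

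The direction of the calls went with the level of expression. Of the 214 falls, 46 had a mean level of the P25 and P20 arrays under 6 log2 units, while 49 of the 72 rises did. When probe sets were divided by level into 5 equal groups, in the dimmest group 32 rose and 1 fell, and in the brightest group 4 rose and 106 fell. The median of all probe sets shifted the same way, by 0.10 over all probe sets, by 0.29 among those with a mean over all arrays under 6 and by -0.13 among those at 6 or above. Changes quoted here are not corrected for these shifts, which were small beside most of the called changes. Without the call, the balance was reversed, since 2805 probe sets (9.04%) were higher and 2067 (6.66%) lower at P25 at an unadjusted p under 0.05. When each array was centred on its own median, 39 probe sets were called higher and 132 lower.

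**Figure D1:**
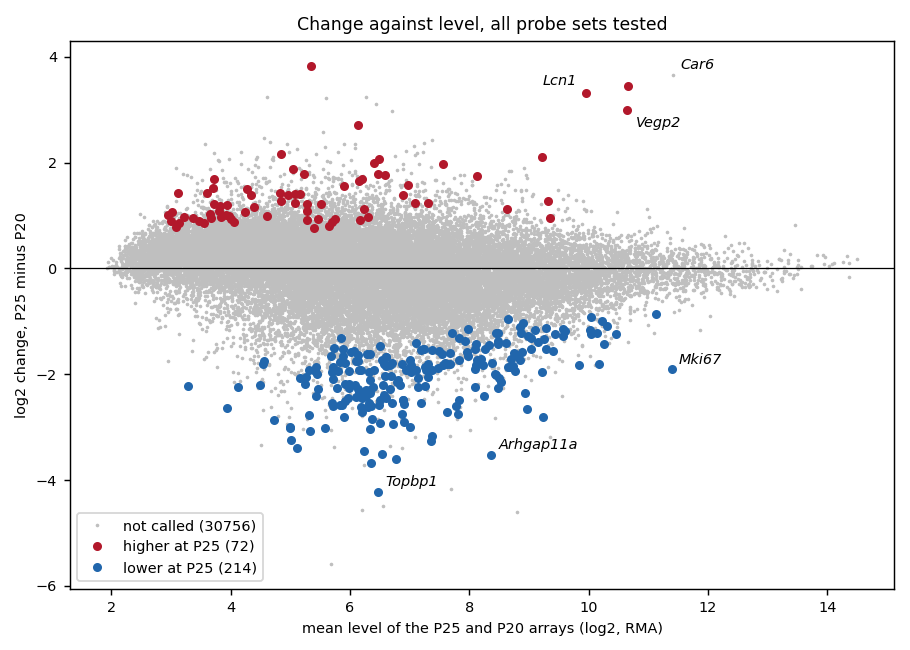
Log2 change of P25 minus P20 (y axis) against the mean level of the 6 arrays (x axis, log2 RMA), 1 point per probe set, with 72 calls higher at P25 in red, 214 calls lower at P25 in blue and the rest in grey. The blue points reach down to -4.22 and lie mostly above a level of 6, while most red points lie under 6, apart from a small group of bright probe sets with Lcn1 and Vegp2.

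The calls depended on the arrays used to estimate the spread. With only the 6 arrays of P25 and P20, which leave 4 residual degrees of freedom in place of 18, limma called 0 probe sets, the lowest adjusted p was 0.093 and 3245 probe sets had an unadjusted p under 0.05. In that fit all 286 probe sets kept their direction, as the means are the same. With Xist minus Eif2s3y as a covariate 21 rises and 96 falls were called, 115 of them among the 286. Without P20 replicate 1 there were 17 rises and 69 falls, without P20 replicate 3 there were 13 and 75, and without P25 replicate 2 there were 162 and 322. The P25 and P20 arrays did not overlap in 281 of the 286 called probe sets, against 6171 of all probe sets (19.9%).

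**Figure D2:**
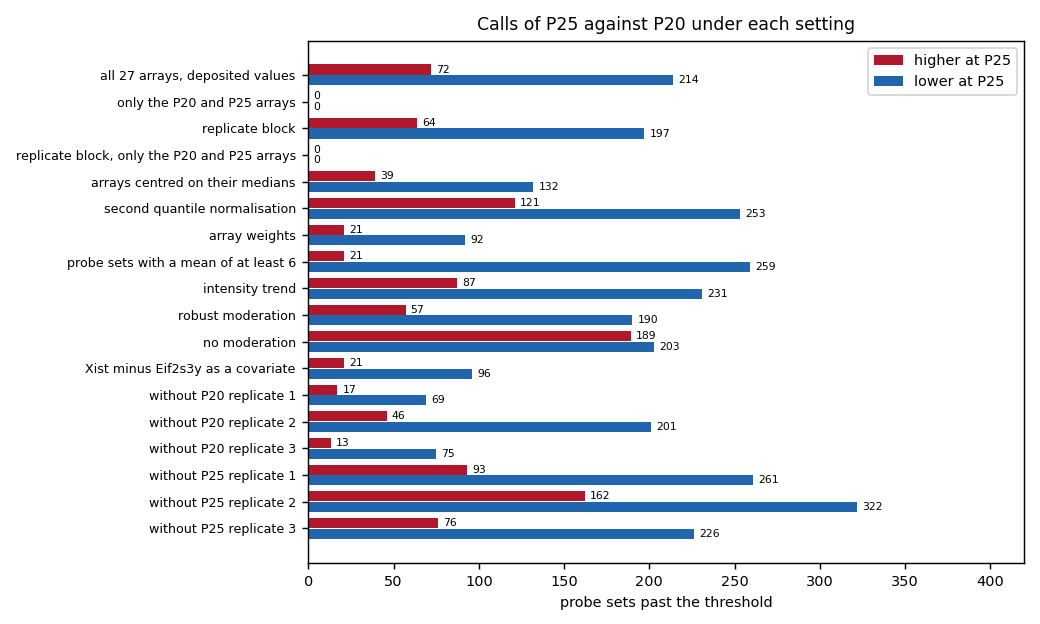
Number of probe sets called in P25 against P20 (x axis) under each setting (y axis), higher at P25 in red and lower at P25 in blue. Calls lower at P25 outnumber calls higher at P25 in every setting that made calls, from 203 against 189 without moderation to 259 against 21 among bright probe sets, and the 2 fits on 6 arrays made 0 calls.

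The promoters of genes at both ends of the comparison are shown first, as a description of what their sequences share. Windows of 250 bases before to 50 bases after the start site came from RefSeq on the build GRCr8. Lcn1 and Vegp2, the largest named rises, encode von Ebner gland proteins, small secreted lipocalins that carry lipids in saliva and tears. Their start sites lie 11781 bases apart on chromosome 3 and are transcribed in opposite directions. Over 298 aligned bases their promoters were identical at 297, and the capital marks the only difference, which is T25G counted from the first base of the Lcn1 window.
Lcn1, chr3:29930693-29930992, plus strand: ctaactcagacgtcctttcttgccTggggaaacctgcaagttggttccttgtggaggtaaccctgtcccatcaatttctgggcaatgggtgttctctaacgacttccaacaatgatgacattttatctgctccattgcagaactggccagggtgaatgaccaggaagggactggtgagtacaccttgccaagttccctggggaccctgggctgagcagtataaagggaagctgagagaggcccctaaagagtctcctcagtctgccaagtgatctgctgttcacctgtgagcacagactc
Vegp2, chr3:29919113-29919412, minus strand: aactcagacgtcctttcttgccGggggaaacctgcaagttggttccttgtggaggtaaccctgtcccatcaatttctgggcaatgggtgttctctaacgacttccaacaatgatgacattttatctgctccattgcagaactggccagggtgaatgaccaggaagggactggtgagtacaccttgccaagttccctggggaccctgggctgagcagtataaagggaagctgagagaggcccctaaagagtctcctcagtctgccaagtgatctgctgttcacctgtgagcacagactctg
These windows lie mostly before the start site, so they do not show how alike the transcripts read by the array are. Lcn1 and Vegp2 may share array signal, and whether each probe set reads only its own gene was not tested.

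Genes of mitosis shared short promoter words. Searched on both strands, TTTGAA or TTCGAA, the core of the cell cycle homology region known from human and mouse cell cycle genes, was found in 13 of 18 promoters of mitosis genes that fell (72.2%), against 14.1% of the 11700 promoters of tested genes. CCAAT, the word bound by NF-Y, was found in 16 of the 18 (88.9%), against 37.3%. The E2F words TTTCCCGC or TTTGGCGC were in 0 of the 18, against 2.55%. Over all 123 windows of genes that fell, the shares were 22.0% for the first pair of words and 43.1% for CCAAT. In the following stretches of 160 bases, from the 4 mitosis genes with the largest falls that hold the first pair of words in this stretch, capitals mark that pair and CCAAT on either strand (ATTGG when read on the other strand).
Prc1, chr1:143659361-143659520, plus strand: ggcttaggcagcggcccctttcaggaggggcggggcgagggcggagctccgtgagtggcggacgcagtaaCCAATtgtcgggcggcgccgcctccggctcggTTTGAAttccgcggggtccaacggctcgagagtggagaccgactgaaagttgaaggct
Nusap1, chr3:127057175-127057334, plus strand: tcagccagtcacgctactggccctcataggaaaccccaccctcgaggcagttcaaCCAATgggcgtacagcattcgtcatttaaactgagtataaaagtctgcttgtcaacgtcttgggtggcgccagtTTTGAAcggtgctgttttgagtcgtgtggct
Kif23, chr8:71320545-71320704, minus strand: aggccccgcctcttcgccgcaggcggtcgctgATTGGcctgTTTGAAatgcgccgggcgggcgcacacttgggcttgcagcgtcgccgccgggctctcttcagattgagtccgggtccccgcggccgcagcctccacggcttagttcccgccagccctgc
Ska1, chr18:70080230-70080389, minus strand: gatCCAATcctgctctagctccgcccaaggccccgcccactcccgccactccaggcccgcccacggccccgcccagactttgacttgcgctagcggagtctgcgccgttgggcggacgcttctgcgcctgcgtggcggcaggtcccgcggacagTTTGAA
A match of letters is a description, and binding at these words was not measured.

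Mitosis was the gene list with the most calls. Of 52 measured mitosis genes, 1 probe set per gene, 21 fell and 0 rose, against 0.823% and 0.169% of all 14217 genes, and the median change was -1.57 against 0.06 over all genes. The mean over the list was 6.03, 6.27 and 5.58 on the P25 arrays and 7.88, 7.03 and 7.83 on the P20 arrays. In these counts each gene stands for its probe set with the highest mean over the 27 arrays, and calls on other probe sets are named apart. In the mitosis list Ccnb1, a B-type cyclin, fell only on such another set, while Incenp, of the chromosomal passenger complex, and Nusap1 fell both on their brightest set and on another. In the list mean every P25 array lay below every P20 array, as in 28 single genes of the list, against 6.45% of all probe sets. P20 replicate 2 was the lowest of its age. That array was also the only one of P20 with a negative Xist minus Eif2s3y value (-2.22), so age and these sex-linked transcripts were partly confounded. From E18 to P20 the mean of the mitosis list lay between 7.58 and 8.92, and at P25 it was 5.96.

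Some of the mitosis genes that fell act on spindle microtubules. Prc1, which bundles midzone microtubules, was at 6.75, 5.52 and 4.87 on the P25 arrays and at 9.38, 8.43 and 9.12 on the P20 arrays (-3.26 ± 0.48, adjusted p = 0.00152). Racgap1 and Kif23 form the centralspindlin complex that calls the contractile ring to the midzone. Racgap1 was at 4.21, 7.39 and 3.30 at P25 and at 8.85, 7.84 and 9.02 at P20 (-3.60 ± 0.62), with P25 replicate 2 close to the P20 arrays. A second, dimmer Racgap1 probe set did not pass (-0.38 ± 0.56), nor did a second set of Kif23 (-1.24 ± 0.51), whose named set fell by 2.72. Nusap1, a protein that binds and bundles spindle microtubules, fell on both of its probe sets, by 3.17 and by 2.43.

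Others that fell act at the kinetochore, which joins chromosomes to the spindle, or on sister chromatids. Spc24, a part of the NDC80 complex, was at 7.66, 8.71 and 6.54 at P25 and at 10.32, 9.79 and 10.79 at P20 (-2.67 ± 0.38). Ska1 was nearly equal on the P25 arrays, at 4.41, 4.47 and 4.39, against 7.32, 5.46 and 8.28 at P20 (-2.60 ± 0.51). Bub1, a spindle checkpoint kinase, and Cenpf, an outer kinetochore protein, changed by -2.42 ± 0.45 and -1.40 ± 0.29. Espl1, the separase that opens sister chromatids, had a change of -2.50 ± 0.51.

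Further genes that fell are known from mitotic entry or as markers of cycling cells. Cdk1, the kinase that drives cells into mitosis, was at 3.74, 5.18 and 4.83 at P25, against 7.58, 6.41 and 7.48 at P20 (-2.58 ± 0.41, adjusted p = 0.00295). Foxm1, the transcription factor of the G2 and M genes, was at 5.09, 4.73 and 5.18, against 7.38, 7.08 and 7.37 (-2.27 ± 0.33), while a dim second probe set showed -0.26 (adjusted p = 0.859). Ccnb2, a B-type cyclin, had a change of -2.15 ± 0.41, and Cdca3, a protein that helps to trigger mitotic entry, one of -2.59 ± 0.54. Mki67, the gene of the Ki-67 proliferation antigen, was bright at both ages, at 10.25, 10.87 and 10.20 on the P25 arrays and 12.47, 12.08 and 12.49 on the P20 arrays. Its change of -1.91 ± 0.20 was past the threshold in all 15 alternatives other than the 2 fits on 6 arrays.

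DNA replication genes shared the direction with fewer calls. Of 50 genes of replication and the G1/S transition 3 fell and 0 rose, with a median change of -0.70, and 20 were lower at an unadjusted p under 0.05 against 7.70% of all genes. E2f8, an atypical E2F that represses transcription, was at 3.62, 6.16 and 3.77 at P25, against 8.74, 6.6 and 8.55 at P20 (-3.45 ± 0.55). Rrm1, the large subunit of ribonucleotide reductase, fell by 2.59 with SE 0.43, and Mcm5, a part of the replicative helicase, by 1.72 with SE 0.33. Orc6, of the origin recognition complex, had a change of -2.67 ± 0.66 and did not pass (adjusted p = 0.056), with further sets at -1.32 and 0.19.

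The largest named fall was that of Topbp1, a scaffold of replication start and of the ATR checkpoint. It was at 6.24, 3.51 and 3.30 on the P25 arrays and at 6.55, 9.78 and 9.39 on the P20 arrays (-4.22 ± 0.68, adjusted p = 0.00326). The gap between P25 replicate 1 and P20 replicate 1 was thus narrow, and a second Topbp1 probe set had a change of -1.11 ± 0.41 and did not pass (adjusted p = 0.19). It was the only call among 24 repair and checkpoint genes, whose median was -0.31. Timeless, which steadies replication forks, had a change of -2.53 ± 0.74 (adjusted p = 0.103). Among 26 chromatin proteins of dividing cells 3 fell, namely Ezh2, the methyltransferase of histone H3 lysine 27 (-1.81 ± 0.37), Stmn1, which depolymerises microtubules (-1.27 ± 0.28), and Lmnb1, a lamin of the nuclear envelope (-1.19 ± 0.27). Other probe sets of Ezh2 and Lmnb1 did not pass, and one of each had a positive change. A tubulin gene of this list, Tubb5, fell on a probe set other than its brightest (-1.41 ± 0.34).

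The list that joins G1 cyclins, CDK inhibitors and quiescence genes had no calls. Of its 32 genes 0 rose and 0 fell under limma, and the median change was -0.02. At an unadjusted p under 0.05, 0 were higher and 5 lower, against 7.89% and 7.70% of all genes. Cdkn2d, an inhibitor of CDK4 and CDK6, was at 6.64, 6.82 and 6.96 at P25 and at 9.06, 7.90 and 8.22 at P20 (-1.59 ± 0.49, adjusted p = 0.118). The 14 p53 targets had 0 calls, 2 of them higher at an unadjusted p under 0.05, and a median of 0.10.

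**Figure D3:**
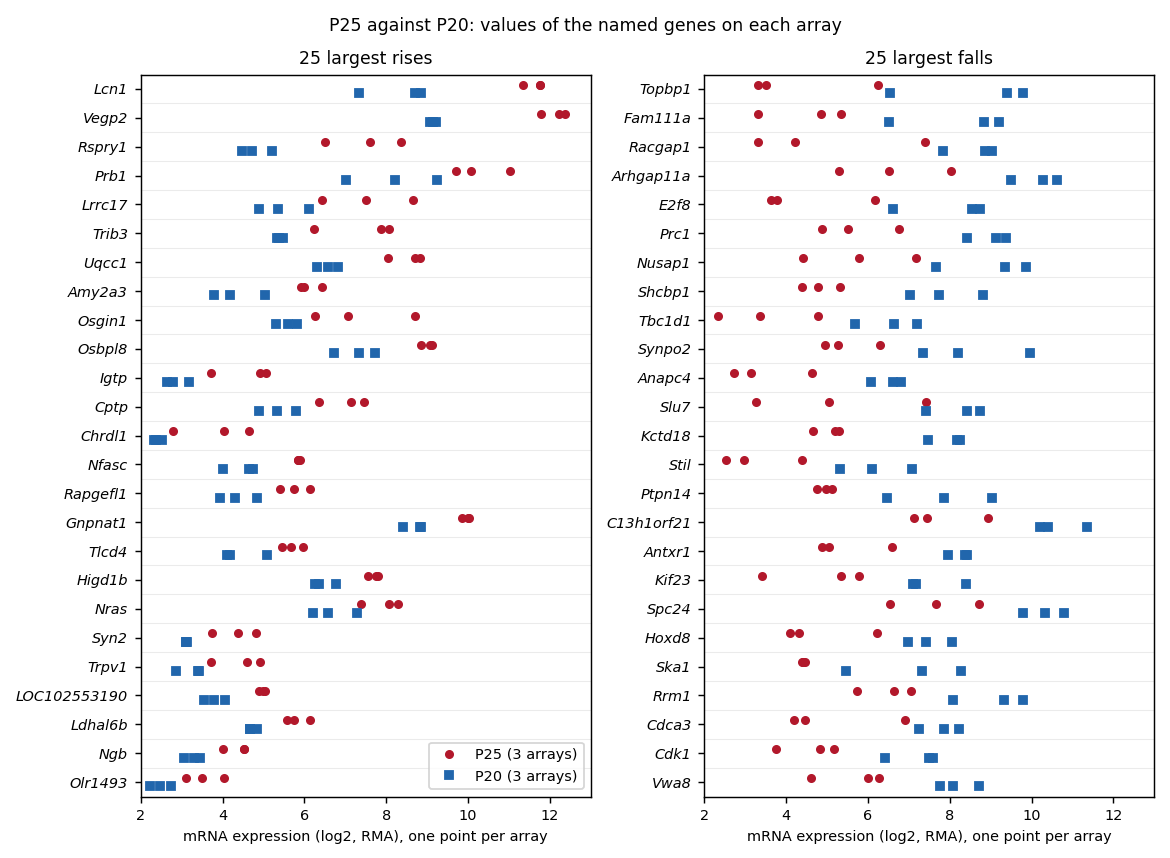
Values of the 25 largest rises and the 25 largest falls on each array (x axis, log2 RMA), with P25 (red circles) above P20 (blue squares) in each row. Lcn1 lies between 11.35 and 11.76 at P25 and between 7.34 and 8.86 at P20, whereas several of the smaller rises stay under 6 at both ages.

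Cell cycle lists covered 30 of the 152 genes that fell (19.7%), against 1.29% of the genes tested, so that 122 of the falls lay outside them. Of the 25 largest falls, 14 lay outside the lists. Several of these are nevertheless known from dividing cells. Arhgap11a, a protein of cytokinesis, was at 6.51, 5.29 and 8.03 at P25, against 10.62, 9.50 and 10.27 at P20 (-3.52 ± 0.44, adjusted p = 0.000248). Shcbp1, a midbody protein, was at 4.39, 5.31 and 4.78, against 8.80, 7.03 and 7.73 (-3.03 ± 0.40). Stil, needed for centriole duplication, changed by -2.86 ± 0.54, and Anapc4, a subunit of the anaphase-promoting complex, fell on both of its probe sets, by 3.0 and by 0.92. Fam111a, a protease that protects replication forks, was at 3.31, 4.86 and 5.34 at P25 and at 8.83, 6.51 and 9.21 at P20 (-3.68 ± 0.60).

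The other 9 of the 14 had more varied roles. Tbc1d1, a RabGAP that governs glucose transporter traffic in muscle and fat, was at 3.35, 2.34 and 4.78, against 7.19, 5.68 and 6.64 (-3.02 ± 0.46), and Kctd18, a BTB domain protein, was at 4.66, 5.29 and 5.20, against 8.18, 7.47 and 8.24 (-2.91 ± 0.29, adjusted p = 1.46e-05). Ptpn14 is a phosphatase that binds the Hippo effector YAP. Its named probe set was at 4.97, 5.11 and 4.76, against 6.47, 9.03 and 7.86 (-2.84 ± 0.52), but 4 other Ptpn14 probe sets had changes of -0.11 to 0.53 and did not pass. Antxr1, a cell surface receptor that binds collagen, was at 5.05, 6.58 and 4.88, against 7.96, 8.43 and 8.36 (-2.75 ± 0.42). The set was completed by the actin-binding muscle protein Synpo2 (-3.0), the splicing factor Slu7 (-2.95), the homeobox gene Hoxd8 (-2.62), the mitochondrial protein Vwa8 (-2.57) and C13h1orf21 (-2.81), a gene of unknown role. Of these, Slu7, with an adjusted p of 0.0496, was called in 5 of 17 alternatives. Further probe sets of Kctd18 (0.44 and -0.54), Tbc1d1 (0.25) and Vwa8 (0.53 and -0.09) did not pass. Nor did those of Synpo2 (-0.04, -1.44 and 0.49) and Slu7 (-1.01).

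Probe sets of one gene often differed. Among the 25 largest falls 12 genes had further probe sets, and in 2 of them, Nusap1 and Anapc4, another one also fell past the threshold. In 5 genes another probe set had a change of opposite sign, although 12 of the 19 further sets had a negative change, and their median level was 6.23 where the named sets had a median P20 mean of 8.19. Among the 25 largest rises 12 genes had further probe sets, none of which was called, and 16 of those 19 were higher at P25.

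Extracellular matrix genes had mostly negative changes with few calls. Of 39 genes of fibrillar collagens and interstitial matrix 0 were called in either direction by limma on the brightest probe sets, and the median was -0.52. At an unadjusted p under 0.05, 11 were lower and 0 higher, against 7.70% and 7.89% of all genes. Col5a2, which sets the width of collagen fibrils, was at 7.23, 7.84 and 9.11 at P25 and at 10.02, 9.33 and 9.97 at P20 (-1.72 ± 0.42, adjusted p = 0.0518), and Fbln2, a fibulin of elastic fibres, had a change of -1.04 ± 0.25 with the same adjusted p. Fbn1, the main protein of microfibrils, was read by a pair of probe sets. The brighter, at 8.21, 8.72 and 7.88, against 9.29, 9.26 and 9.88, did not pass (-1.21 ± 0.31, adjusted p = 0.0601), and the other did, at 6.73, 8.52 and 7.11, against 9.72, 9.38 and 9.69 (-2.15 ± 0.39, adjusted p = 0.00987). Col14a1, a fibril-associated collagen, also fell on a set other than its brightest (-1.52 ± 0.31).

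The basement membrane and the collagen chaperone showed the same direction. Of 27 basement membrane genes 1 fell, with a median of -0.48 and 10 lower at an unadjusted p under 0.05, against 7.70% of all genes. It was Smoc2, a calcium-binding matrix protein that modulates growth factors, at 8.53, 9.29 and 10, against 10.73, 11.20 and 11.29 (-1.80 ± 0.28, adjusted p = 0.00242). Both dimmer Smoc2 probe sets did not pass, with changes of 0.44 and 0.01. Nid1 and Lama5, a nidogen and a laminin chain, had changes of -0.95 ± 0.23 (adjusted p = 0.0529) and -1.42 ± 0.38 (adjusted p = 0.0748), and further sets of Lama5 had -0.06 and 0.37. Among 32 genes of matrix processing Serpinh1, the chaperone of procollagen, fell by 1.34 with SE 0.32, another of its sets had -0.26 and did not pass, and the list's median was -0.03. The 27 integrins and adhesion receptors had 0 calls. At an unadjusted p under 0.05, 1 was higher and 3 lower, against 7.89% and 7.70% of all genes.

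Most markers of fibroblasts and of basal and myoepithelial cells were also lower at P25. By contrast, all 7 adipocyte markers and 4 of 5 mast cell markers were higher. All 8 fibroblast markers had negative changes, with 0 calls by limma and a median of -0.82. At an unadjusted p under 0.05, 3 were lower, against 7.70% of all genes. The mean of the 8 fibroblast markers was 9.31 to 9.85 on the P25 arrays and 9.96 to 10.47 on the P20 arrays, so the ages did not overlap. The 8 basal and myoepithelial markers had means of 6.91 to 7.80 at P25 and 7.70 to 8.23 at P20, with a median of -0.66. Skeletal muscle markers were low on P25 replicates 1 and 2, with means of 6.18 and 6.11, and high on P25 replicate 3 (10.66) and on the P20 arrays (9.45, 10.87 and 8.93). Cells or fragments of these types inside the captured areas and a change within acinar cells cannot be told apart on such arrays, and the part of these markers in the falls was not tested. Without P25 replicate 3 the calls numbered 76 higher and 226 lower, and without P20 replicate 2, the array with the highest muscle level, 46 higher and 201 lower. The first of these fits leaves the ages fully apart in muscle level, and the second does not make them equal. The part of muscle in the calls was therefore not tested by either fit.

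Signalling and transcription genes were also among the falls. In the WNT list 2 of 35 genes fell, although the list's median was 0.23. Fzd3, a WNT receptor, was at 6.92, 7.01 and 5.29, against 8.74, 8.26 and 8.01 (-1.93 ± 0.34), and Sfrp2, a secreted WNT antagonist also made by fibroblasts, at 7.39, 8.27 and 7.58, against 9.73, 10.14 and 8.97 (-1.87 ± 0.36). A dimmer Sfrp2 set did not pass, with a change of 0.31. Of 20 Hippo pathway genes 1 fell, Tead3, a DNA-binding partner of YAP, at 6.21, 5.11 and 4.98, against 9.00, 7.47 and 7.49 (-2.55 ± 0.40, adjusted p = 0.00269), while its other probe set had 0.16 and did not pass. No member of the FGF and EGF list (38 genes), the TGF-beta and BMP list (32), the Notch list (24), the IGF and insulin list (22) or the imprinted growth gene list (18) was called by limma on its brightest probe set. At an unadjusted p under 0.05 these lists held 0 to 2 rises and 2 to 5 falls each, against 7.89% and 7.70% of all genes. Of the TGF-beta and BMP list, Fstl1, a secreted follistatin-like protein, fell on another probe set (-1.14 ± 0.24, adjusted p = 0.024). Nrg1, a ligand of the ERBB receptors, was at 3.94, 4.29 and 4.92, against 7.19, 10.13 and 6.96, and did not pass (-3.71 ± 1.05, adjusted p = 0.0936), and 7 further Nrg1 probe sets had changes of -1.09 to 0.63 and did not pass. H19 and Igf2, a pair of linked imprinted genes, had changes of -1.19 ± 0.35 (adjusted p = 0.106) and -1.54 ± 0.47 (adjusted p = 0.115), and 3 other Igf2 probe sets had positive changes.

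A few further falls were chosen after their values were seen. Of these Jun, Sox4 and Tp63 belong to lists, in which their brightest probe sets were not called. Trim35, a RING finger protein, was at 8.26, 8.52 and 7.98, against 10.46, 10.04 and 10.11 (-1.95 ± 0.20, adjusted p = 1.78e-05), and Ttc3, a ubiquitin ligase, at 7.35, 7.58 and 8.24, against 9.22, 9.59 and 9.96 (-1.86 ± 0.26). Among transcription factors, Jun, a part of AP-1, was at 7.05, 7.97 and 6.99, against 9.70, 9.84 and 9.29 (-2.27 ± 0.29, adjusted p = 0.000326), whereas its other probe sets, at -0.84 and -0.80, did not pass. Sox4 changed by -1.56 ± 0.24 and Maf by -1.91 ± 0.38, and Tp63, the p63 factor of basal epithelial cells, by -1.87 ± 0.43. Cpsf7, which takes part in cleaving mRNA before polyadenylation, fell on 2 probe sets, by 2.07 and by 2.06, and Zc3h13, of the complex that methylates adenosine in mRNA, fell by 1.64. Further probe sets of Ttc3, Sox4, Maf, Tp63, Cpsf7 and Zc3h13 did not pass, and for Ttc3, Sox4, Maf and Zc3h13 some had positive changes. Sftpd, surfactant protein D, a collectin of airways and salivary ducts, was at 7.85, 7.33 and 7.30, against 9.17, 9.36 and 9.29 (-1.78 ± 0.34).

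In the epithelium lists single genes fell. Of 33 junction and polarity genes, 1 fell, Cdh1, the E-cadherin of epithelial junctions, at 7.55, 8.39 and 8.54, against 9.27, 9.02 and 9.06 (-0.96 ± 0.22), with a second, uncalled probe set at 0.26. Of 42 actin cytoskeleton genes 1 fell, Marcks, a membrane protein that crosslinks actin, at 10.50, 10.49 and 11.10, against 11.67, 11.43 and 11.60 (-0.87 ± 0.19), and its 5 other probe sets did not pass. In this list 13 genes were lower and 0 higher at an unadjusted p under 0.05, against 7.70% and 7.89% of all genes. The median was -0.53.

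Metabolic and hormone-responsive lists had falls that mostly missed the threshold. Among 21 cholesterol synthesis and SREBP2 genes the median was -0.80, with 0 calls by limma on the brightest probe sets. At an unadjusted p under 0.05, 8 were lower and 1 higher, against 7.70% and 7.89% of all genes. Fdps, which makes farnesyl diphosphate, was at 10.20, 10.55 and 10.72, against 11.68, 11.46 and 11.98 (-1.22 ± 0.32, adjusted p = 0.0718), and Cyp51, a lanosterol demethylase, at 9.17, 9.60 and 10.10, against 10.75, 10.97 and 11.01 (-1.29 ± 0.35, adjusted p = 0.0823). The ages did not overlap in either gene. The mean of the list was 7.25 at P15 and 8.23 at P20 and stood at 7.46 at P25. Of 28 genes of fatty acid oxidation 1 fell, Eci2, an enoyl-CoA isomerase (-1.92 ± 0.39), and the median was -0.41. Of 20 glucocorticoid-induced genes 1 fell, Errfi1, an inhibitor of the EGF receptor, at 8.06, 7.14 and 8.66, against 9.89, 9.01 and 9.74 (-1.60 ± 0.32). In this list 7 genes were lower at an unadjusted p under 0.05, against 7.70% of all genes. Per1, a clock gene that glucocorticoids also induce, was at 8.03, 7.41 and 8.36, against 10, 9.31 and 8.92, and did not pass (-1.48 ± 0.43, adjusted p = 0.104). The hour of sampling is not given in the sources used here.

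The rises were led by secreted proteins of saliva. Lcn1 was at 11.76, 11.75 and 11.35 on the P25 arrays and at 8.86, 7.34 and 8.70 on the P20 arrays, a change of 3.32 ± 0.35 (adjusted p = 2.32e-05). Vegp2, its neighbour with the near-identical promoter printed above, was at 12.37, 12.23 and 11.79, against 9.14, 9.07 and 9.22 (2.98 ± 0.27, adjusted p = 8.16e-06), the lowest p of the comparison. Prb1, a proline-rich protein that binds tannins and calcium, was at 10.07, 9.70 and 11.02, against 9.25, 7.02 and 8.22 (2.10 ± 0.38, adjusted p = 0.0113). Amy2a3, a pancreatic-type amylase gene, was at 6.43, 6.0 and 5.93, against 5.05, 4.18 and 3.80 (1.78 ± 0.32, adjusted p = 0.0108). Whether this dim probe set also reads the far brighter parotid amylase gene Amy1 was not tested. In Lcn1, Vegp2, Prb1 and Amy2a3 every P25 array lay above every P20 array, which the rule for naming the largest rises required. The word TATAAA, the TATA box core, stands in the promoters of 10 of the 33 genes that rose and have a window (30.3%), against 8.44% of the tested genes. Lcn1 and Vegp2, with their near-identical promoters, are both counted among the 10.

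Lcn1, Prb1 and Amy2a3 were the 3 calls among 33 measured salivary secreted protein genes, with 0 falls, besides Vegp2, which was not in the list. The list's median was 0.15 and 13 of its genes had all P25 arrays above all P20 arrays, against 13.4% of all probe sets. Car6, a carbonic anhydrase secreted into saliva, had the largest change of any gene in the list, at 13.44, 13.08 and 13.22 against 9.32, 9.45 and 9.98, but did not pass (3.66 ± 1.20, adjusted p = 0.139). Its age means were uneven before P20, at 10.43 at P9 and 5.86 at P15, though differences between ages do not enter the SE. In the limma fit on the 6 arrays the SE of Car6 was 0.29 and its adjusted p 0.093. The most abundant saliva genes were near the top of the scale at both ages. Amy1, the parotid amylase, was at 14.46, 14.44 and 14.43, against 14.24, 14.14 and 14.23 (0.24 ± 0.64), and Smr3a, which encodes a secreted salivary peptide, at 14.59, 14.60 and 14.55, against 14.54, 14.29 and 14.40 (0.17 ± 0.43). The 11 acinar markers averaged 11.13 to 11.38 on the P25 arrays and 10.68 to 11 on the P20 arrays, so they were high at both ages.

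The machinery of secretion had next to no calls. Of 45 ER folding genes 0 were called by limma, with 2 higher at an unadjusted p under 0.05, against 7.89% of all genes, 0 lower and a median of 0.07. The 63 genes of ER translocation, glycosylation and vesicle transport had 0 calls, 1 higher at an unadjusted p under 0.05, and a median of 0.08, and the 42 genes of granule exocytosis had 0 calls, 3 higher and 2 lower at an unadjusted p under 0.05, and a median of 0.06. Among 39 fluid secretion genes 1 fell, Kcne1, a potassium channel subunit, at 5.88, 5.61 and 5.73, against 8.96, 6.84 and 8.05 (-2.21 ± 0.53, adjusted p = 0.0496), and it was called in 4 of 17 alternatives. The ATF4 list of 34 genes had the highest median of the 49 lists, 0.29, with 28 genes above 0 and 0 calls on the brightest probe sets. Trib3, a pseudokinase induced by ATF4, was called on a dimmer probe set, at 6.23, 7.87 and 8.06, against 5.32, 5.48 and 5.39 (1.99 ± 0.38, adjusted p = 0.0138), while its other sets had changes of 0.73 ± 0.29 and 2.15 ± 0.81 and did not pass. Ddit3, the CHOP factor of the same stress pathway, had the opposite sign, at 6.37, 6.75 and 7.74, against 9.58, 8.56 and 8.20 (-1.83 ± 0.49, adjusted p = 0.0761).

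The remaining rises were varied and mostly dim. Uqcc1, an assembly factor of respiratory complex III, was at 8.82, 8.05 and 8.71, against 6.30, 6.82 and 6.58 (1.96 ± 0.36), though a brighter Uqcc1 set had -0.26 ± 0.51 and did not pass. Gnpnat1, an enzyme on the way to UDP-N-acetylglucosamine, was among the brighter rises, at 9.86, 10 and 10.02, against 8.85, 8.40 and 8.83 (1.27 ± 0.25). Osbpl8, a lipid transfer protein of the ER, was at 9.06, 9.13 and 8.85, against 7.34, 6.73 and 7.72 (1.75 ± 0.40), but was called in 0 of the 6 fits that left out 1 array. Lrrc17, a secreted leucine-rich repeat protein, differed in that it was high early, at 9.47 at E18, and rose again to 7.52 at P25, against 5.45 at P20.

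Many of the 38 genes that rose were dim at both ages. They included genes best known from nerve cells, Syn2 (4.32 at P25 and 3.11 at P20), Nfasc (5.86 and 4.46), Ngb (4.35 and 3.27) and Trpv1 (4.41 and 3.23), and an olfactory receptor gene, Olr1493 (3.55 and 2.48). The values of these genes lay where the median of all probe sets also shifted upward, by 0.32 in the dimmest of the 5 groups and 0.29 in the next. Of 5 nerve and Schwann cell markers 0 were called by limma or had an unadjusted p under 0.05, and their means were 6.61 to 7.01 at P25 and 6.32 to 6.79 at P20. Slc2a4, the insulin-responsive glucose transporter GLUT4, was the 1 call among 22 glycolysis genes, at 6.69, 6.24 and 6.93, against 5.54, 5.68 and 5.88 (0.92 ± 0.20, adjusted p = 0.034). The 7 adipocyte markers were all higher at P25, with 0 calls by limma and 0 at an unadjusted p under 0.05, and averaged 5.31 to 6.26 at P25 and 4.84 to 5.27 at P20, and their part in the rise of Slc2a4 was not tested.

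Several housekeeping lists set a baseline. The 9 reference genes had a median of -0.05 and 0 calls by limma. At an unadjusted p under 0.05 there were 0, against 7.89% higher and 7.70% lower over all genes. The 37 cytosolic ribosomal protein genes had a median of -0.23 and 34 of them were below 0, with 0 calls and 2 lower at an unadjusted p under 0.05. Of 46 respiratory chain genes 0 were called, 1 was higher at an unadjusted p under 0.05, and the median was -0.02. Among 38 splicing genes Sf3a1, a part of the U2 particle, was the 1 fall on the brightest probe sets (-2.19 ± 0.48), and its other probe set did not pass. Hnrnpa3, an RNA-binding protein of the same list, fell on another set (-1.27 ± 0.29). Among 21 MHC genes RT1-Bb, a class II chain, was the 1 fall (-1.31 ± 0.31), a family in which probe sets can share sequence, and its other probe set had a change of 0.06. In all, 35 of the 49 lists had a median below 0. Of all 9046 genes with a mean level of at least 6, 5410 were lower at P25, with a median of -0.13. The part of this shift with level in the count of lists was not tested.

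**Figure D4:**
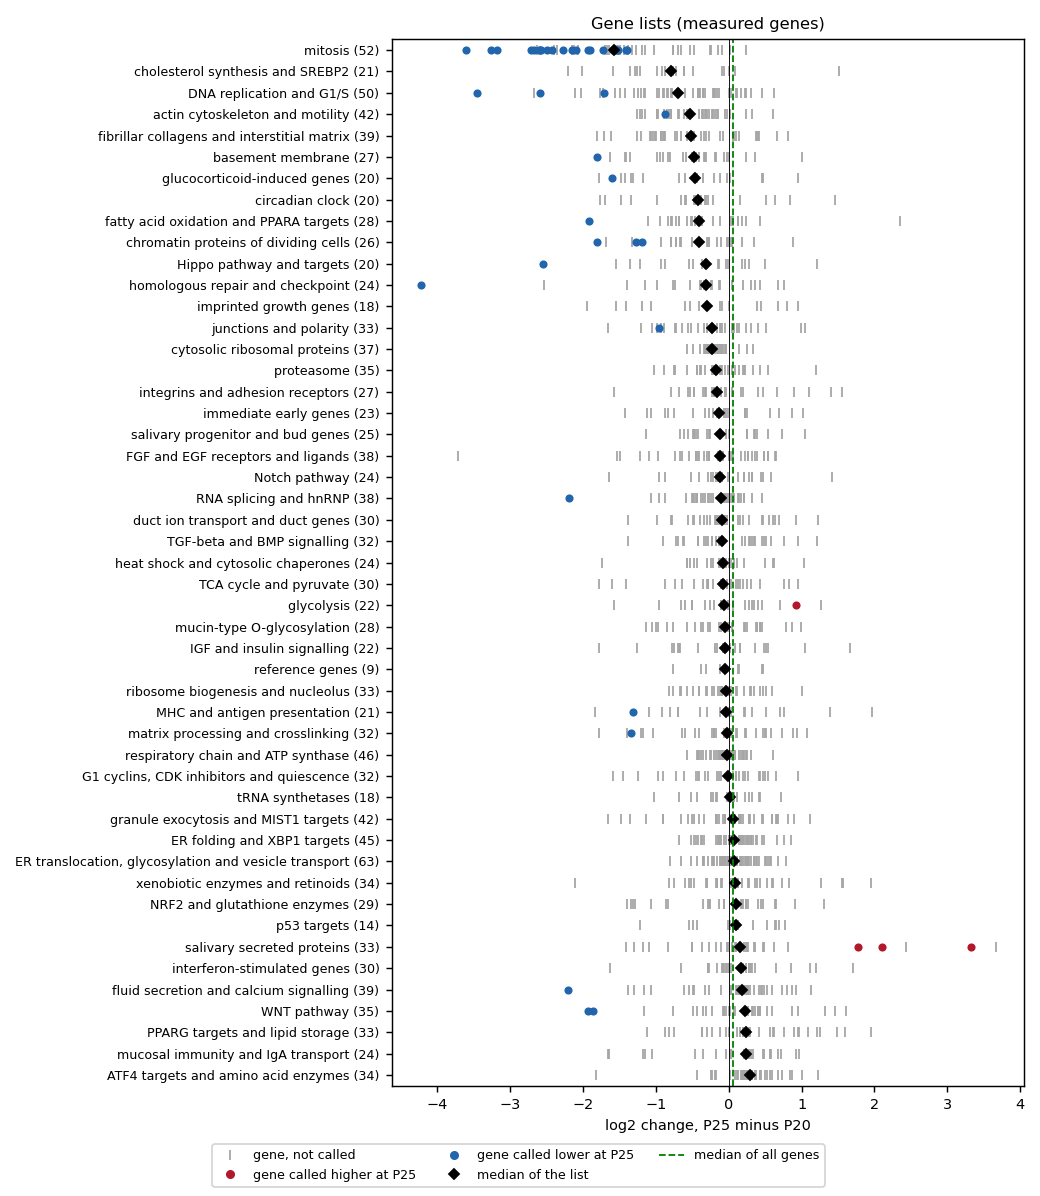
Log2 change of P25 minus P20 (x axis) for the measured genes of each list (y axis, number of measured genes in parentheses), with calls in colour, uncalled genes as grey ticks, list medians as diamonds and the median of all genes as a dashed line. Mitosis stands at the top with a median of -1.57 and 21 calls, while the 3 calls among salivary secreted proteins lie to the right of a list median of 0.15.

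The courses over the other ages are given as a description. The median level of the 214 probe sets that fell was 8.81 at E18, 8.22 at P15, 8.10 at P20 and 5.77 at P25, and 203 of them had their lowest age mean at P25, which the choice of large falls at P25 largely fixes. On the arrays of P15 and E18, which entered the comparison only through the shared spread, 143 of the 214 had a lower mean at P15 than at E18 (66.8%), against 45.8% of all probe sets. Mki67 had age means between 12.34 and 12.56 from E18 to P20 and 10.44 at P25. Prc1 likewise stayed between 8.88 and 9.46 up to P20 and was at 5.72 at P25. Others were already lower at P15 than at E18, such as Cdk1, at 9.11 at E18, 7.67 at P15, 7.16 at P20 and 4.58 at P25. Stil was at 7.75, 6.17, 6.16 and 3.30 at the same ages.

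The 72 rises had median levels of 4.11 at E18, 4.44 at P15, 4.36 at P20 and 5.80 at P25, and 67 had their highest age mean at P25, again largely fixed by the choice. Lcn1, Vegp2, Prb1 and Amy2a3 already had higher means at P20 than at P15. Lcn1 was between 3.95 and 4.45 from E18 to P15, and Prb1 between 3.99 and 4.51, and in the same fit the step before, P20 minus P15, was 3.85 for Lcn1 and 3.97 for Prb1. Vegp2 had steps of 2.99 up to P20 and 2.98 after it. These steps share the P20 arrays with the comparison of P25 and P20, so they are given side by side only. Trib3, by contrast, was between 4.65 and 5.02 up to P15, at 5.40 at P20 and at 7.39 at P25.

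**Figure D5:**
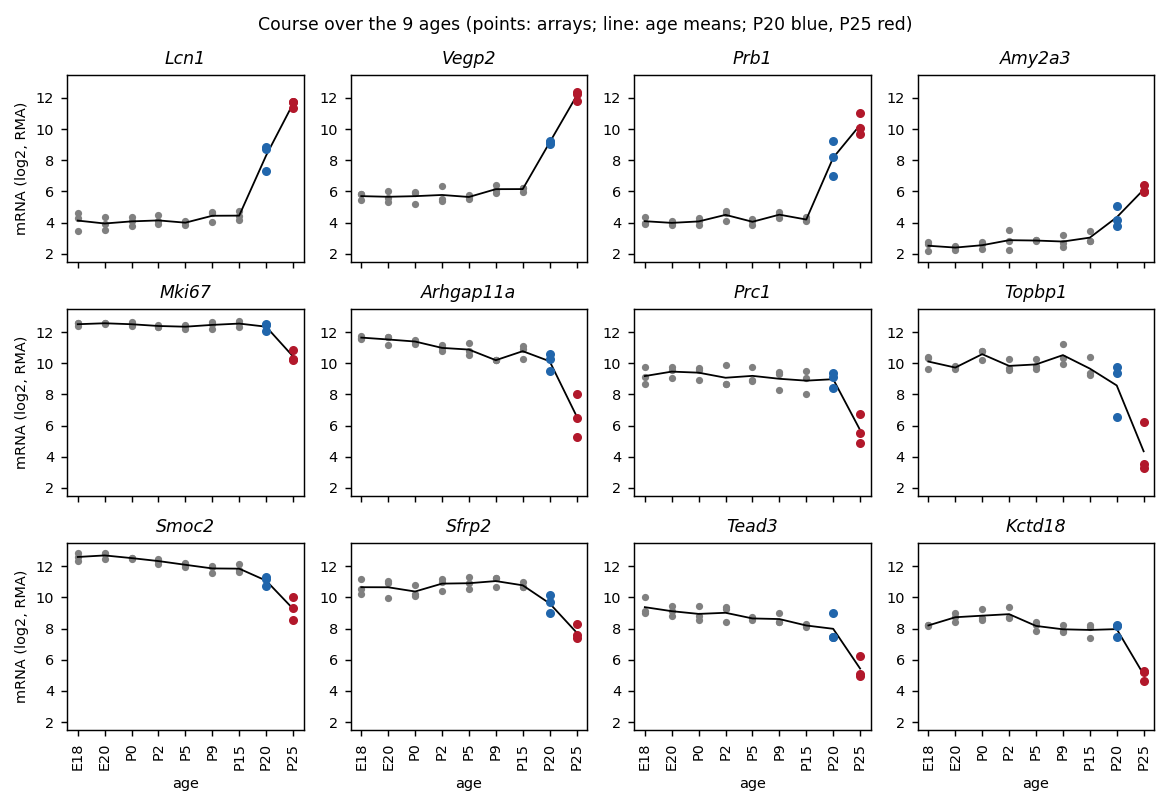
mRNA expression (y axis, log2 RMA) over the 9 ages (x axis) for 4 rises and 8 falls, with a point per array and a line through the age means, P20 in blue and P25 in red. Lcn1, Vegp2, Prb1 and Amy2a3 leave a flat course at P20, while Mki67, Prc1 and Kctd18 hold their level to P20 and are lower at P25.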

How the data were processed

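RNA of laser-captured rat parotid acinar cells, 1.5 or 4.5 ng per the labels, was amplified and measured on Affymetrix rat expression arrays. The amount behind each array is not given in the sources used here. The authors deposited RMA values, which are log2 intensities per probe set after background correction and quantile normalisation, and these were used unchanged. The software behind them is not given in the sources used here. Of 31099 probe sets 57 array controls were left out. Of 31042 tested, 20826 had 1 gene symbol (14217 genes), 436 several and 9780 none, by a platform annotation updated through gene IDs (20758 matched). limma 3.58.1 in R 4.3.3 fitted 1 coefficient per age to 27 arrays (18 residual degrees of freedom), with empirical Bayes moderation and two-sided p-values. The design was checked on simulated data.

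Named genes were the 25 largest rises and 25 largest falls by log2 change among called probe sets with 1 symbol, 1 per gene and with the ages not overlapping, and up to 4 members of each list by the size of t. Bub1, Cenpf, Espl1, Ccnb2, Amy1, Smr3a, Ccnb1, Incenp, Tubb5, Col14a1, Hnrnpa3, Hlf and Cpa3 are list members outside this rule, chosen after their values were seen. Lists used the probe set with the highest mean over the 27 arrays. The samples, lists and rules were chosen with earlier results of these data known. P-values measure the spread between litters, 3 per age, and this number limits the precision. Alternatives changed the arrays used, the scaling, the weights, the filter on level and the moderation, or added a replicate block or a sex covariate.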

Additional observations from a re-analysis of the deposited data

How the results depend on the processing

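In the fit to all 27 arrays 286 probe sets were called, 72 higher and 214 lower at P25, and 44 genes of the lists. The fits on only the P20 and P25 arrays called 0 in each of these counts, with and without a replicate block. The deviations of same-numbered P25 and P20 arrays correlated at 0.01, -0.05 and -0.03. With so few arrays per age, these values cannot decide whether replicate numbers pair the samples. The replicate block on 27 arrays gave 261 calls, 64 higher and 197 lower. Centring the arrays on their medians gave 171 calls, 39 higher and 132 lower (77.2% lower, against 74.8%), a second quantile normalisation 374, with 121 and 253 (67.6% lower), and array weights 113, with 21 and 92. Of 15902 probe sets with a mean of at least 6, 280 were called, 21 higher and 259 lower. Without moderation 392 were called, 189 higher and 203 lower, and with Xist minus Eif2s3y as a covariate 117, with 21 and 96. An intensity trend gave 318 and robust moderation 247. Leaving out 1 array gave between 86 (without P20 replicate 1) and 484 calls (without P25 replicate 2), with 13 to 162 higher and 69 to 322 lower. Array weights left 27 calls among list genes and the covariate 28, and leaving out 1 array gave 15 to 58. The 69 called probe sets among the named genes kept their direction in every alternative that tested them. The choice of called genes, mostly with the ages not overlapping, largely fixed this. Between 27 and 51 of the 69 passed when 1 array was left out. Hprt1, an uncalled reference gene (-0.38), had 0.08 without P25 replicate 2 and -0.64 to 0.08 over the 6 such fits. The cause of these shifts in count was not tested.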

Other observations

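Some lists that the comparison above leaves out held single genes of note, given here as values. Igfbp3, a binding protein of insulin-like growth factors, was at 8.82, 7.95 and 7.99 at P25 and at 6.41, 6.06 and 7.32 at P20 and did not pass under limma (1.66 ± 0.44, adjusted p = 0.0716). Fst, the activin antagonist follistatin, was at 7.94, 8.36 and 9.12, against 7.83, 6.91 and 7.05 (1.21 ± 0.30, adjusted p = 0.0521), and was called in 6 of 17 alternatives. Adh1c, an alcohol dehydrogenase that can oxidise retinol, was at 8.42, 7.84 and 7.66, against 10.38, 9.85 and 10.02 (-2.11 ± 0.69, adjusted p = 0.136). St3gal4, a sialyltransferase, was at 7.89, 7.68 and 7.38, against 6.89, 6.65 and 6.42 (1.00 ± 0.26, adjusted p = 0.0621). In these probe sets the P25 and P20 arrays did not overlap, but other sets of Fst (-0.30), Adh1c (0.34) and St3gal4 (-0.30) had the opposite sign and did not pass. Hlf, a clock-controlled transcription factor, and Stard4, a cholesterol carrier, fell on probe sets other than their brightest (-2.20 ± 0.50 and -2.45 ± 0.59). The brightest Hlf set had a change of the opposite sign, 0.15, and did not pass under limma (adjusted p = 0.905).

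Genes of plasma cells had changes of opposite sign, none past the threshold. Jchain, the joining chain of secreted immunoglobulins, was at 11.37, 11.74 and 11.38 at P25 and at 10.52, 10.68 and 10.39 at P20 (0.97 ± 0.31, adjusted p = 0.132), whereas Mzb1, a chaperone of antibody-secreting cells, was at 8.44, 9.96 and 9.18, against 10.21, 11.70 and 10.65 (-1.66 ± 0.49, adjusted p = 0.107). A second Jchain probe set had -0.20 and did not pass. Cpa3, a mast cell protease, was at 5.59, 6.15 and 6.98, against 4.26, 4.53 and 3.14 (2.26 ± 0.76, adjusted p = 0.148).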
